A study of Homo sapiens with 6 samples.

Results

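Nonsense-mediated decay (NMD) factors were followed at the mRNA level after knockdown of Prp19 in SK-N-BE(2), a human neuroblastoma cell line with high MYCN expression. The 9 genes were UPF1, UPF2, UPF3A, UPF3B, SMG1, SMG5, SMG6, SMG8 and SMG9, taken by name from the 58302 genes in the expression tables, and all 9 were found and passed the filter on low values. RNA was sequenced from 3 samples treated with a negative control siRNA (NC) and 3 samples treated with an siRNA against Prp19 (siPrp19). Both groups were the same cell line under siRNA transfection, with no other allele or agent named in the labels, and the labels give 72 h of treatment while the study's methods give a shorter time. The model was transient and incomplete silencing in 1 cell line, and a second cell line of the study was not analysed here.

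NMD is the surveillance pathway that destroys mRNAs on which translation stops too early, often because an exon junction complex still sits downstream of the stop codon. The helicase UPF1 is recruited to such a stop, UPF2 and UPF3 proteins bridge it to the exon junction complex, the SMG1 kinase phosphorylates it under the control of SMG8 and SMG9, and SMG5 and SMG6 then help bring about cleavage, deadenylation and decapping. The mRNAs of several of these factors, among them UPF1, UPF2, UPF3B, SMG1, SMG5 and SMG6, are known to be NMD targets themselves and to rise when the pathway is impaired or overloaded. Prp19, encoded by PRPF19, is a ubiquitin ligase of the spliceosome, and faulty splicing is a known source of premature stop codons. The comparison asked whether the mRNAs of the NMD factors changed with less PRPF19.

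None of the 9 factors passed the test for a difference. With siPrp19, 6 had a higher mean and 3 a lower mean than with NC, and the differences ran from −0.10 for UPF1 to 0.13 for UPF3A on the log2 scale, with a median of 0.017 beside −0.004 for all 14462 genes tested. PRPF19 itself stood at 53.1, 53.1 and 64.9 FPKM (fragments per kilobase of exon relative to the sequencing depth, a level per gene length) in NC replicates 1, 2 and 3 and at 21.8, 28.5 and 33.6 FPKM in siPrp19 replicates 1, 2 and 3. All siPrp19 samples lay below all NC samples, and the mean was 49.0% of NC. Its difference was −1.04 (SE 0.19) on the log2 scale, with an exact two-sided permutation p of 0.1, the smallest that 3 against 3 samples allow. By limma on all genes its adjusted p was 0.9999, in a fit that called 0 of the 14462 genes. With samples blocked by replicate number (the block, below) it was 0.19 over all genes, and 0.0176 over genes of at least 5 FPKM, in a fit that called 1.57% of 7913 genes and 0 of the 7 NMD factors it held (SMG6 and SMG9 were under 5 FPKM).

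Depth and sample identity bear on these values as follows. By the reads recovered from the FPKM values, 19058782 to 24181789 reads lay on genes per sample, and each NMD factor had 281 to 7111 reads in a sample. Replicate 3 of both groups stood apart, with 16.5% (NC) and 17.0% (siPrp19) of all FPKM on mitochondrial coding genes against 6.86% to 8.35% in the other 4 samples. All 10 neuroblastoma markers were expressed, MYCN at 992 ± 161 FPKM with NC and 1040 ± 214 FPKM with siPrp19 (SD, n = 3), and their summed level was 2130 to 2240 FPKM with NC and 1980 to 2570 FPKM with siPrp19. PHOX2A had the highest log2 difference of them (0.084). Of 12 markers of blood, endothelial, fibroblast, epithelial and red blood cells only 4 reached the filter, CD3E was at 0 in every sample, and their sum was 49.5 to 76.3 FPKM with NC and 46.8 to 63.1 FPKM with siPrp19, mostly from COL1A1. HBB, a globin gene, had the lowest log2 difference (−2.50) and reached 15.4 FPKM in NC replicate 1, and EPCAM had the highest difference (0.34; 1.34 to 1.78 FPKM with NC and 1.79 to 2.48 FPKM with siPrp19). In bulk RNA, fewer cells of a type and less RNA per cell cannot be told apart. The part of these markers and of the mitochondrial share in the values below was not tested.

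The levels of the factors with NC fell into 3 tiers. SMG5 was the most abundant at 29.4 ± 1.97 FPKM and UPF1 followed at 23.1 ± 2.16 FPKM (SD, n = 3), without overlap between them or with the next. UPF2 (11.9 FPKM), UPF3B (11.2 FPKM), SMG1 (10.4 FPKM), UPF3A (9.74 FPKM) and SMG8 (9.31 FPKM) formed the middle tier, in which each gene overlapped its neighbour in the order. SMG6 (2.15 FPKM) and SMG9 (2.13 FPKM) were lowest, lay below every SMG8 sample and overlapped each other. Among all genes tested, SMG5 stood at percentile 90.2 and UPF1 at percentile 86.8, the middle tier between percentiles 64.6 and 71.7, and SMG6 and SMG9 at percentiles 22.1 and 22.0. FPKM here counts every annotated exon of a gene, and scaled to the length of 1 principal transcript UPF1 (37.2 FPKM) came above SMG5 (34.2 FPKM) and UPF3A (23.5 FPKM) above the rest of the middle tier. Thus the order depended in part on which exons were counted, while SMG6 (3.81 FPKM) and SMG9 (3.07 FPKM) stayed lowest on both scales.

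**Figure D1:**
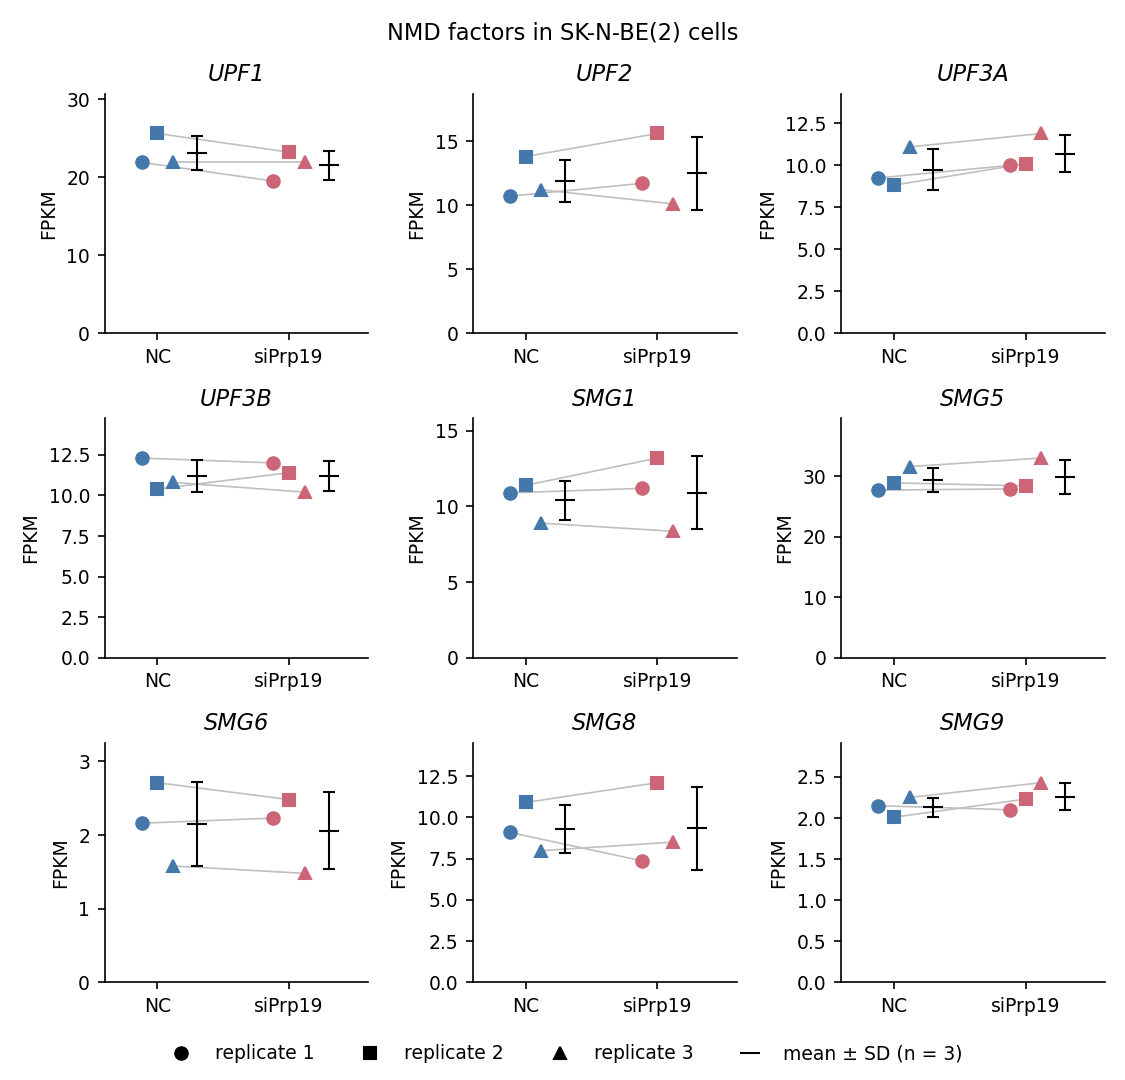
Level of each NMD factor (vertical axis, FPKM, starting at 0) in the NC (blue) and siPrp19 (red) samples. Symbols mark replicate numbers, grey lines join samples with the same number, and black bars show the mean ± SD of 3 samples; the groups overlap in 9 of 9 panels.

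UPF1 (ENSG00000005007) is the ATP-dependent RNA helicase at the centre of NMD. The gene lies on chromosome 19 of GRCh38 from 18831938 to 18868236 on the plus strand and has 24 exons in its principal transcript. Its level was 21.9, 25.6 and 21.9 FPKM in NC replicates 1, 2 and 3 and 19.5, 23.2 and 21.9 FPKM in siPrp19 replicates 1, 2 and 3. The siPrp19 value was the lower one in each same-numbered pair, by 0.16, 0.14 and 0.002 on the log2 scale, so that the third pair was level, and the groups overlapped. UPF1 was the only factor lower in 3 of 3 pairs, where 21.3% of all tested genes were. The mean with siPrp19 was 21.5 ± 1.86 FPKM against 23.1 ± 2.16 FPKM (SD, n = 3), a difference of −0.10 (SE 0.13). SEs of log2 differences, here and for the other genes, are from the fit without the block. In that fit the 95% interval for UPF1 was −0.41 to 0.20. With the block it was −0.24 to 0.037, which also includes 0 (limma, adjusted p = 0.422).

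UPF2 (ENSG00000151461) is the adaptor that links UPF1 to the UPF3 proteins, encoded on chromosome 10 from 11920022 to 12043170 on the minus strand. Its level was 10.7, 13.8 and 11.2 FPKM with NC and 11.7, 15.6 and 10.1 FPKM with siPrp19. Replicate 2 was the highest sample of each group, and the pairs disagreed, with siPrp19 higher in pairs 1 and 2 and lower in pair 3. The difference was 0.051 (SE 0.19), with a blocked interval of −0.16 to 0.26.

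UPF3A (ENSG00000169062) and UPF3B (ENSG00000125351) are paralogs that connect NMD to the exon junction complex, UPF3B being the stronger activator and UPF3A the weaker. UPF3A lies on chromosome 13 from 114281584 to 114305817 on the plus strand, and UPF3B on chromosome X from 119805311 to 119852998 on the minus strand. UPF3A was at 9.25, 8.82 and 11.1 FPKM with NC and at 10.0, 10.1 and 11.9 FPKM with siPrp19. The siPrp19 value was the higher one in each pair, by 0.11, 0.19 and 0.097 on the log2 scale, yet the groups overlapped because NC replicate 3 lay above siPrp19 replicates 1 and 2. UPF3A was the only factor higher in 3 of 3 pairs, where 19.2% of all tested genes were. Its difference of 0.13 (SE 0.14) was the highest of the 9, and the blocked interval was −0.004 to 0.27 (limma, adjusted p = 0.328). On recovered reads, limma voom with the block gave 0.14 with an interval of 0.011 to 0.27 and an unadjusted p of 0.0348, which was 0.192 after adjustment over all genes.

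UPF3B was at 12.3, 10.4 and 10.8 FPKM with NC and at 12.0, 11.4 and 10.2 FPKM with siPrp19. The means were equal at 11.2 FPKM (SD 0.996 with NC and 0.926 with siPrp19, n = 3), and the difference was 0.002 (SE 0.13) with a blocked interval of −0.16 to 0.17. The ratio of UPF3A to UPF3B, looked at after the data were seen, was 0.751, 0.846 and 1.03 with NC and 0.833, 0.88 and 1.17 with siPrp19. The ratio was higher with siPrp19 in 3 of 3 pairs, and the groups overlapped. The exact two-sided permutation p was 0.6, from a test that does not use the pairs.

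Reads of UPF3A and UPF3B could be told apart, since the longest identical stretch of their coding sequences was 16 bases. The most alike 30-base stretch, in exon 7 of both, is shown to let the difference be seen, 5′ to 3′ as transcribed, with capitals where the paralogs differ. It lies at chr13:114291641-114291670 (plus strand) in UPF3A and at chrX:119841222-119841251 (minus strand) in UPF3B, on GRCh38 with the GENCODE 29 transcripts, and 27 of 30 bases are identical.
UPF3A: gagaagaGaagCgagaagaaCggaggagga
UPF3B: gagaagaAaagAgagaagaaAggaggagga

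UPF3A is less separable from its processed pseudogenes. Of the 100-base windows of its transcript, 25.7% also occurred in UPF3AP1 or UPF3AP2 on chromosome 17, and reads from there cannot be assigned with certainty. The pseudogenes held little signal, with a mean of 0.142 FPKM for UPF3AP1 and 0.093 to 0.719 FPKM for UPF3AP2. A stretch in which a single base, in capitals, separates the transcripts is shown from exon 2 of UPF3A (chr13:114282069-114282098, plus strand) and from UPF3AP2 (chr17:20376759-20376788, minus strand).
UPF3A: gagcagctgcgcccgCtgccagcacacgac
UPF3AP2: gagcagctgcgcccgTtgccagcacacgac

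SMG1 (ENSG00000157106) is the kinase that phosphorylates UPF1. It has the longest coding sequence of the 9, with 10986 bases, and 63 exons. The gene lies on chromosome 16 from 18804853 to 18926454 on the minus strand. Its level was 10.9, 11.4 and 8.9 FPKM with NC and 11.2, 13.2 and 8.36 FPKM with siPrp19. Replicate 3 was the lowest sample of each group, and siPrp19 was higher in pairs 1 and 2 and lower in pair 3. The difference was 0.052 (SE 0.20), with a blocked interval of −0.14 to 0.24.

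SMG1 has 7 annotated pseudogene copies on the same chromosome, SMG1P1 to SMG1P7, and 11.0% of the 100-base windows of its transcript also occurred in them, so its reads are partly uncertain. SMG1P1 was at 3.44 to 3.88 FPKM over the 6 samples, and 6 of the 7 copies passed the filter on low values. A stretch of exon 2 of SMG1 (chr16:18896916-18896945, minus strand) and of exon 2 of SMG1P1 (chr16:22454713-22454742, plus strand) is shown, with the single differing base in capitals.
SMG1: catcagccgacccagAtaatttaaaatatt
SMG1P1: catcagccgacccagGtaatttaaaatatt
None of the 6 copies was called by limma with or without the block, and neither was any other tested gene. Among them the log2 difference was highest for SMG1P5 (0.44; 1.49, 2.35 and 1.19 FPKM with NC and 1.89, 3.41 and 1.69 FPKM with siPrp19) and lowest for SMG1P6 (−0.52, SE 0.50). Voom with the block called 1 of the 6, SMG1P5 (adjusted p = 0.0155), where 7.69% of all genes were called. With the reads of SMG1 and all copies summed, the blocked voom difference was 0.065 (adjusted p = 0.529), close to that of SMG1 alone (0.068).

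SMG8 (ENSG00000167447) and SMG9 (ENSG00000105771) form the complex that restrains the SMG1 kinase. SMG8 lies on chromosome 17 from 59209400 to 59215247 on the plus strand. Its level was 9.09, 10.9 and 7.98 FPKM with NC and 7.37, 12.1 and 8.5 FPKM with siPrp19. It gave the widest pair, with siPrp19 lower by 0.30 on the log2 scale in pair 1, but higher by 0.16 and 0.090 in pairs 2 and 3, and the mean difference was −0.017 (SE 0.22; blocked interval −0.285 to 0.251). Of its transcript windows, 9.7% were shared with AC099850.2, an overlapping gene on the same strand that was listed at 0 FPKM in all samples.

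SMG9 lies on chromosome 19 from 43727992 to 43754990 on the minus strand. It was at 2.15, 2.01 and 2.25 FPKM with NC and at 2.1, 2.23 and 2.43 FPKM with siPrp19. The siPrp19 value was higher in pairs 2 and 3 and just lower in pair 1, and the groups overlapped. The difference was 0.075 (SE 0.16), with a blocked interval of −0.19 to 0.34.

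SMG5 (ENSG00000198952), which helps recruit decay enzymes to phosphorylated UPF1, lies on chromosome 1 from 156249224 to 156282825 on the minus strand. Its level was 27.7, 28.9 and 31.6 FPKM with NC and 27.9, 28.4 and 33.0 FPKM with siPrp19. Samples with the same number were nearly level, with pair differences of 0.012, −0.026 and 0.064. The difference was 0.017 (SE 0.12), and its blocked interval, −0.10 to 0.13, was the narrowest of the 9.

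SMG6 (ENSG00000070366), the endonuclease that cuts the mRNA near the premature stop, lies on chromosome 17 from 2059839 to 2303771 on the minus strand. It was at 2.16, 2.71 and 1.58 FPKM with NC and at 2.23, 2.48 and 1.48 FPKM with siPrp19. Replicate 3 was the lowest and replicate 2 the highest sample of each group. The difference was −0.055 (SE 0.28), with a blocked interval of −0.335 to 0.225. Exons of HIC1 (mean 0.276 FPKM) and SRR (mean 1.32 FPKM) overlap those of SMG6 on the opposite strand, and without strand in the counting such reads cannot be told apart.

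Over the 9 factors, 0 were called by limma at an adjusted p of 0.05, both without the block and with it, and 0 had an unadjusted p under 0.05 in either fit, where 1.56% of all genes without the block and 15.7% with it did. At the adjusted threshold 0% of all 14462 genes were called in both fits. Voom on recovered reads with the block called 7.69% of the genes it tested and 0 of the 9. Of the 9, 1 (UPF3A) had an unadjusted p under 0.05 by voom, as had at least those 7.69% of genes. The groups overlapped for 9 of 9, while 2.77% of all genes had every siPrp19 sample above every NC sample and 2.84% had every one below. Exact two-sided permutation p-values of the 9, which do not use the pairs, ran from 0.4 to 1.0, and 0.1 is the smallest that this design can give.

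The precision sets what these data could have shown. The 95% interval lay within a 1.5-fold change in either direction for 8 of the 9 factors without the block (all but SMG6) and for 9 of 9 with it. With the block the outermost bounds over the 9 were 0.793-fold and 1.27-fold of NC. Larger changes in the mean were thus outside the blocked intervals, and the width differed by gene, from −0.10 to 0.133 for SMG5 to −0.335 to 0.225 for SMG6. Without the block the intervals were wider, from −0.28 to 0.31 for SMG5 to −0.73 to 0.62 for SMG6. By pair, the median difference of the 9 was 0.012, 0.14 and −0.002 in pairs 1, 2 and 3, with 5, 6 and 4 factors higher. Of the 6 members named above as known NMD targets, 4 had a higher and 2 a lower mean with siPrp19 (median difference 0.01), and of the other 3, 2 had a higher and 1 a lower mean (median difference 0.07).

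**Figure D2:**
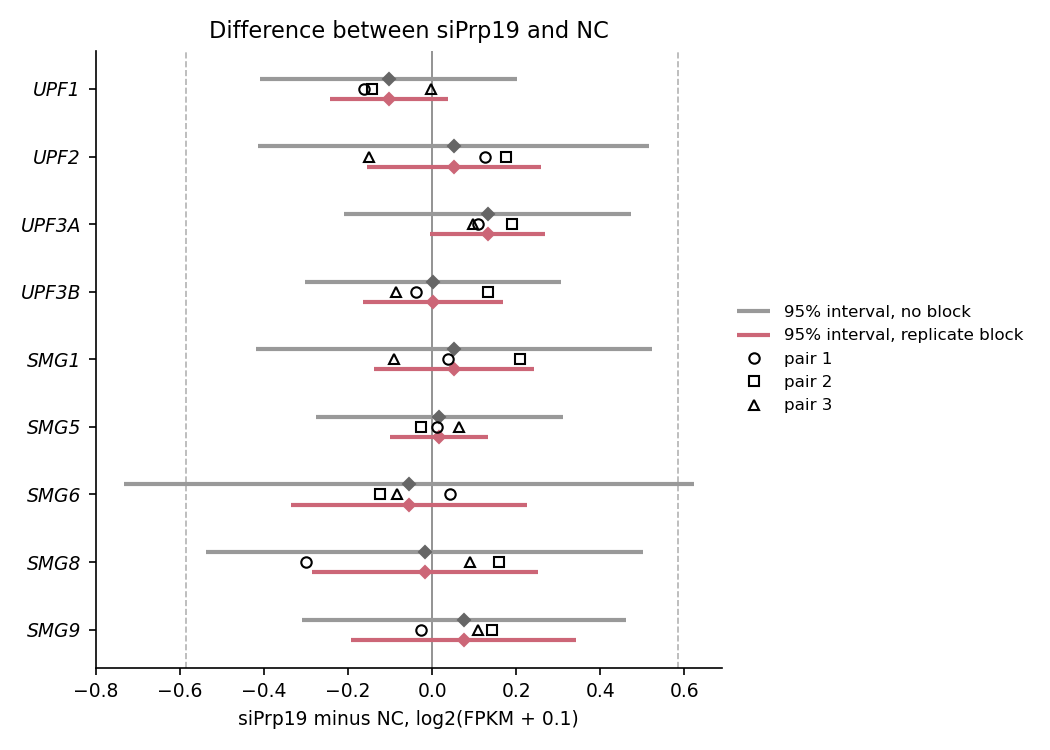
Difference between siPrp19 and NC (horizontal axis, log2(FPKM + 0.1)) for each NMD factor. Diamonds and bars are the mean difference with its 95% interval without (grey) and with (red) the replicate block, open symbols are the 3 same-numbered pairs, and dashed lines mark a 1.5-fold change; only the grey bar of SMG6 crosses them and every bar crosses 0.

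Several factors differed between replicate numbers, as did many of all tested genes (shares below). Averaged over NC and siPrp19, SMG6 was at 2.19, 2.6 and 1.53 FPKM in replicates 1, 2 and 3, a range of 0.73 on the log2 scale against an siPrp19 difference of −0.055. SMG1 was at 11.1, 12.3 and 8.63 FPKM, SMG8 at 8.23, 11.5 and 8.24 FPKM, and UPF2 at 11.2, 14.7 and 10.6 FPKM, so that replicate 2 was the highest for all 4. UPF3A (9.62, 9.45 and 11.5 FPKM) and SMG5 (27.8, 28.7 and 32.3 FPKM) were instead highest in replicate 3, the number with the high mitochondrial share. The range between replicate numbers was larger than the siPrp19 difference for 9 of 9 factors and for 91.5% of all genes, but a range over 3 means tends to exceed a difference of 2 means even without an effect of the number, so nothing is read from this count. By limma's F test of the replicate number, a test added after the data were seen, 5 of the 9 differed between numbers at an adjusted p under 0.05: SMG1 (adjusted p = 0.0204), SMG6 (0.0217), UPF2 (0.0286), UPF3A (0.0318) and SMG8 (0.0432). Of all genes 49.6% did. Voom gave 7 of the 9 and 65.5% of all genes. SMG9 was the steadiest of the 9, with 2.12, 2.12 and 2.34 FPKM (adjusted p = 0.576).

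**Figure D3:**
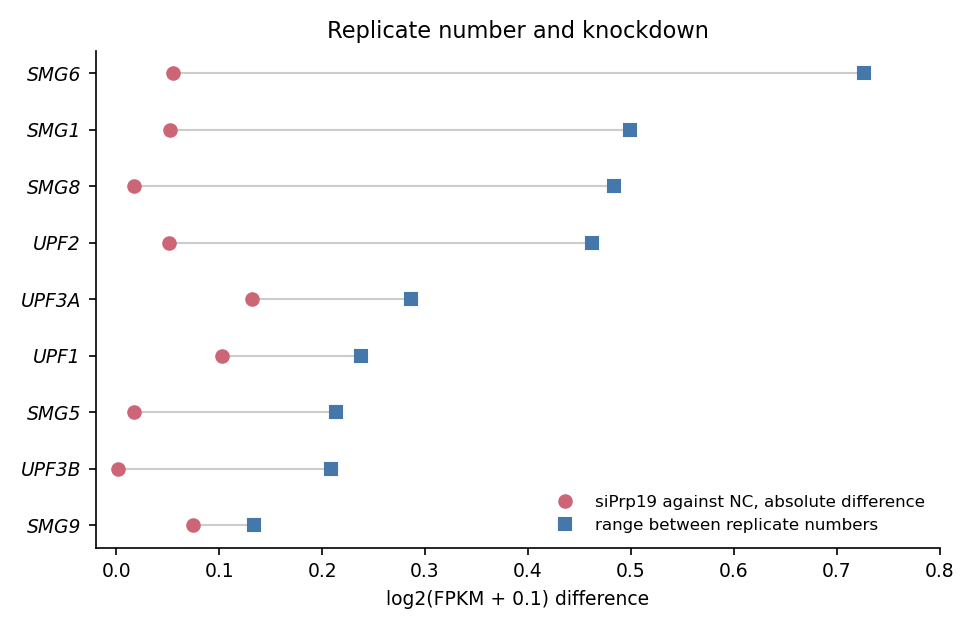
Size of 2 differences for each NMD factor on the log2(FPKM + 0.1) scale (horizontal axis), the absolute siPrp19 against NC difference (red circles) and the range between the means of replicate numbers 1, 2 and 3 (blue squares). The square lies to the right of the circle for 9 of 9 factors, by most for SMG6. The range was the larger for 91.5% of all tested genes too, and nothing is read from the count.

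The 3 genes whose pattern over the 6 samples was most like that of UPF1, among 7912 other genes of at least 5 FPKM, were TNRC6A, RNF7 and FGFR1, with root-mean-square differences of 0.029, 0.030 and 0.031 on the log2 scale after centring each gene on its mean. These are the smallest of 7912 values over only 6 samples, and shared regulation was not tested. Of the other NMD factors SMG5 had 0.15, SMG8 0.17, UPF2 0.18, UPF3B 0.19, and UPF3A and SMG1 0.22. Their ranks among the 7912 genes ran from 2120 (SMG5) to 4350 (SMG1). SMG6 and SMG9 were under 5 FPKM and were not compared.

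In their annotation the coding sequence was above the median of 1395 bases of the tested coding genes in 9 of 9, though UPF3A (1431 bases), UPF3B (1452 bases) and SMG9 (1563 bases) were close to it. Their 3′UTRs, a feature known to draw UPF1 when long, were above the median of 1112 bases in 6 of 9, from 237 bases in SMG8 to 4716 bases in SMG1. An exon junction over 50 bases after the stop codon, the classical NMD signal, was in the principal transcript of 0 of 9, as in 0.3% of the tested coding genes. At least 1 transcript annotated as an NMD substrate was listed for 3 of 9 (SMG1, SMG8 and SMG9), against 42.9% of tested coding genes. Gene-level FPKM does not separate these transcripts.

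Limma with or without the block called 0 of all 14462 genes tested, so the absence of calls among the other genes of the pathway is not particular to them. Of 15 NMD partners 9 had a higher and 6 a lower mean (median difference 0.05). The highest was DHX34, a helicase that aids UPF1 phosphorylation, at 4.65 ± 0.234 FPKM with NC and 5.33 ± 0.236 FPKM with siPrp19 (SD, n = 3). Every siPrp19 sample of DHX34 lay above every NC sample, as for 2.77% of all tested genes. Its adjusted p was 0.328 by limma with the block and 0.12 by voom with the block. The lowest was NCBP1, a cap-binding protein, at 15.0 ± 3.11 and 13.8 ± 3.47 FPKM (SD, n = 3; difference −0.14). Of 10 genes of the exon junction complex and its regulators, the mark that NMD reads, the median difference was 0.032, between PYM1 (−0.12), which takes the complex apart, and ACIN1 (0.10), a peripheral component.

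Of 22 enzymes of mRNA decay and their cofactors, 15 had a lower and 7 a higher mean, with a median difference of −0.056. In 3 of 3 pairs 10 were lower and 4 higher, where 21.3% and 19.2% of all tested genes were. In limma with the block 7 had an unadjusted p under 0.05, where 15.7% of all tested genes did. No tested gene passed adjustment over all genes in that fit. The lowest was DDX6, a helicase that promotes decapping, at 25.6, 35.6 and 29.9 FPKM with NC and 20.8, 33.5 and 26.7 FPKM with siPrp19, lower in 3 of 3 pairs (difference −0.18; adjusted p = 0.259 by limma with the block). The highest was PAN2, a poly(A) nuclease, at 11.0, 9.04 and 10.7 FPKM with NC and 12.3, 10.1 and 12.7 FPKM with siPrp19, higher in 3 of 3 pairs (difference 0.19; adjusted p = 0.23). Voom with the block called both, DDX6 with an adjusted p of 0.034 and PAN2 with 0.0293. These were 2 of the 20 enzymes it tested, where 7.69% of all genes were called.

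Transcripts known as NMD targets were split in direction. Of 20, 11 had a higher and 9 a lower mean, the median difference was 0.013, and 3 were higher and 3 lower in 3 of 3 pairs, beside 19.2% and 21.3% of all tested genes. GAS5, a snoRNA host gene that is a classical NMD target, was at 112 ± 24.8 FPKM with NC and 113 ± 27.5 FPKM with siPrp19, and ATF4, the stress response factor, at 186 ± 45.3 and 189 ± 48.6 FPKM (SD, n = 3; these were named after their values were seen). The highest was SNHG8, another snoRNA host gene, at 80.3, 107 and 60.3 FPKM with NC and 111, 114 and 67.0 FPKM with siPrp19 (difference 0.24; adjusted p = 0.3 by limma with the block and 0.017 by voom with the block). The lowest was CDKN1A, which encodes the cell cycle inhibitor p21, at 5.89, 12.9 and 5.57 FPKM with NC and 3.43, 8.18 and 4.65 FPKM with siPrp19 (difference −0.56; adjusted p = 0.202 by limma with the block and 0.000365 by voom with the block). SNHG8 was higher and CDKN1A lower in 3 of 3 pairs, and the groups of each overlapped. They were the 2 called by voom with the block among the 17 it tested, where 7.69% of all genes were called.

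**Figure D4:**
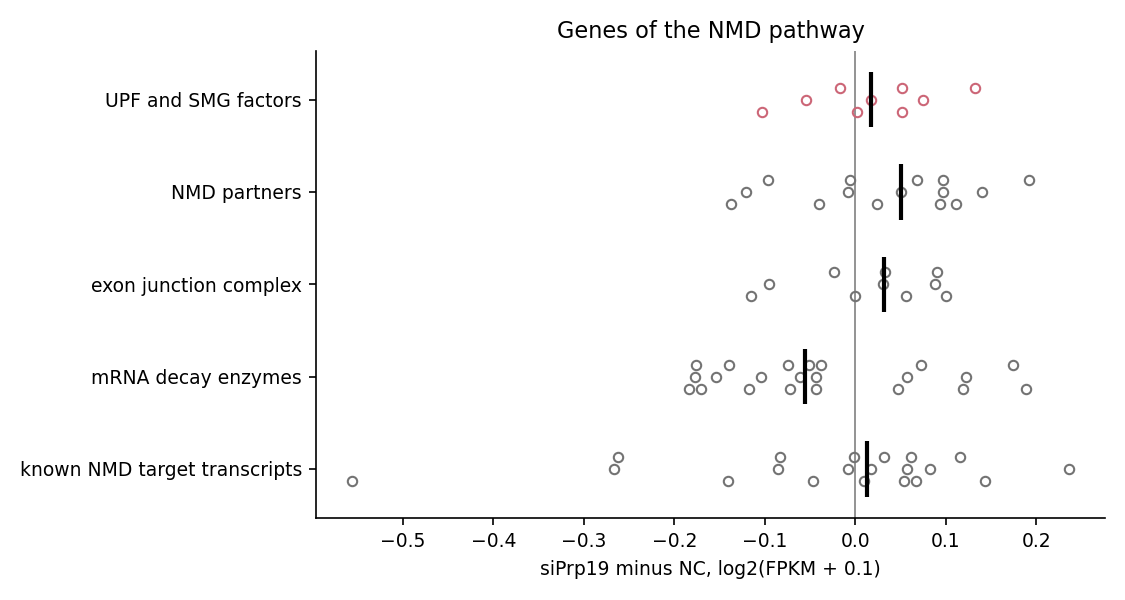
Difference between siPrp19 and NC (horizontal axis, log2(FPKM + 0.1)) of every tested gene in the 9 UPF and SMG factors (red) and in 4 other groups of genes of the pathway (grey), with 1 circle per gene and a black bar at the group's median. The medians lie between −0.056 and 0.05, and the circle farthest to the left is CDKN1A.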

How the data were processed

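The authors sequenced RNA libraries and deposited 1 table per sample with FPKM values for 58302 Ensembl genes. The submitters' processing notes name HISAT2 2.0.5, featureCounts 1.5.0-p3 and hg38, and the annotation is not given in the sources used here. The study's methods name DESeq2 for the authors' own test, and the study reports many genes as significantly regulated after the knockdown. The counts of genes called in this report come from limma on these values and not from that test. Symbols, gene models and transcript sequences were taken from GENCODE 29 (58039 identifiers found). FPKM times exon length gave whole reads (tolerance 0.05) for 95.9% of genes not at 0 throughout, and 19058782 to 24181789 reads per sample.

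Values were turned into log2(FPKM + 0.1), a scale that understates changes of low genes, and 14462 genes averaging 1 FPKM or more over the samples entered limma 3.58.1 under R 4.3.3 (eBayes with trend) and adjusted by Benjamini-Hochberg. The code was tested on simulated data. Permutation tests were run in scipy 1.17.1 on 3 against 3 samples, without the pairs. The members, lists and the rule for named genes were chosen with earlier results of these data known: the 9 factors, PRPF19, the highest and the lowest gene of each list with any gene called, and the 3 genes most like UPF1. Groups and replicate numbers came from the labels. Deviations of same-numbered NC and siPrp19 samples from their group means correlated over genes with r of 0.38, 0.57 and 0.64 (0.05 to −0.53 for other pairs), so the numbers were taken to pair the samples. Replicates differed beyond sampling noise (chi-square per degree of freedom of 23.3 to 125). The labels do not say that replicates were separate cultures, the study's methods call them biological, and p-values measure the spread between these samples. Alternatives were other pseudocounts, filters, scalings, variance models, the block, voom on recovered reads and samples left out. The F test of the replicate number, the ratio of UPF3A to UPF3B, and the block with quantile normalization, with a pseudocount of 1, without replicate 3 or on the summed reads of SMG1 and its copies were chosen after seeing the data. Protein sequences were not used here, and some genes that the rule names are not reported here.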

Additional observations from a re-analysis of the deposited data

How the results depend on the processing

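The NMD factors tested had 0 calls under each alternative run (7 of the 9 with genes of at least 5 FPKM, where SMG6 and SMG9 were not tested). Over all genes the count was also 0 in most of these runs, and 1 with limma's trend off and its robust option on. At such shares few or none of 9 genes would be called, so nothing about the factors is read from their 0. The count was 124 of 7913 genes (1.57%) with the replicate block and genes of at least 5 FPKM. By voom with the block it was 1046 of 13602 genes (7.69%), a share that also leaves little room for calls among 9 genes. The block therefore changed calls elsewhere (PRPF19 −1.04 and −1.03, called in both of the last settings, with 1 neuroblastoma marker called in each). Of the genes it tested, voom with the block called 2 of 20 mRNA decay enzymes, 2 of 17 NMD targets and 1 of 6 SMG1 pseudogenes. The count of factors higher in 3 of 3 pairs was 2 with TPM and with voom with or without the block (SMG9 joined UPF3A), and the count lower was 0 after quantile normalization with or without the block (UPF1). SMG8 turned to 0.003 by voom with the block, and SMG5 to −0.007 with the block and no replicate 3. The number differing between replicate numbers was 4 to 7 over the alternatives.

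Leaving out 1 sample or 1 pair called 0 genes. The median of the 9 then ranged from −0.094 (without siPrp19 replicate 2) to 0.065. Single factors ranged from −0.12 to 0.19 (UPF2), −0.062 to 0.073 (UPF3B), −0.094 to 0.23 (SMG1), −0.059 to 0.069 (SMG5), −0.25 to 0.16 (SMG6) and −0.22 to 0.14 (SMG8), and so took either sign. UPF1 (−0.16 to −0.027), UPF3A (0.050 to 0.23) and SMG9 (0.022 to 0.13) kept theirs. These fits had no block, so leaving out a single sample left its same-numbered partner unmatched. With a whole pair left out, SMG6 stayed negative (−0.104, −0.020 and −0.041). UPF2, UPF3B, SMG1, SMG5 and SMG8 still took either sign. The causes were not tested. SMG9 and SMG6 had the fewest reads, 281 to 544 per sample.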
